A study of Mus musculus with 97 samples.

Results

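The HoxD cluster was followed through 28 libraries from mouse striatum and cerebellum. Its members were the rows of the deposited table whose symbol was Hoxd1, Hoxd3, Hoxd4, Hoxd8, Hoxd9, Hoxd10, Hoxd11, Hoxd12 or Hoxd13, which gave 9 of 37991 genes. All 9 were found, and no measured value entered the choice.

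Hox genes encode transcription factors with a homeodomain that give cells of the embryo their position along the body axis. In the HoxD cluster the order along the chromosome follows the order of expression, with Hoxd1 at the anterior and early end and Hoxd13 at the posterior and late end. In most adult cells, and in the forebrain throughout, the clusters are kept silent by Polycomb repressive complex PRC2, which methylates histone H3 at lysine K27. Eed is the PRC2 subunit that reads this mark and is needed for the activity of the complex.

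The study measured ribosome-bound RNA of microglia, the resident macrophages of the brain, by TRAP (translating ribosome affinity purification), in which a GFP-tagged ribosomal protein is pulled down with its mRNA. All TRAP mice carried Cx3cr1CreErt2/+(Litt), a tamoxifen-dependent Cre driven from the Cx3cr1 locus, and Eef1a1LSL.eGFPL10a/+, a Cre-dependent tagged ribosomal protein. All were C57BL/6 and received tamoxifen at 4 to 6 weeks of age. Libraries labelled Eed-ko came from Eedfl/fl mice, and control libraries came from Eedfl/+ mice, which therefore carried 1 floxed Eed allele and the same Cre and tamoxifen.

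Each of the 12 TRAP groups, formed by 2 regions, 3 ages (3, 6 and 9 months) and 2 genotypes, held 2 libraries. The other 4 libraries were RNA of the unbound fraction of 9-month Eedfl/+ controls, 2 per region, called tissue RNA here. The labels' protocol gives all 4 as unbound, while the column names of replicate 1 end in IN and those of replicate 2 carry UB. The Cre also acts in other cells that express Cx3cr1, such as macrophages at the brain's borders. The labels do not say whether the 2 libraries of a group came from separate animals, so a p-value reflects no more than the variation among these libraries, which may be technical. The other 69 samples of the series were not analysed here.

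The deposited values are in RPKM, which scales reads by gene length and by library depth. Whole reads could be recovered from them and are given beside low values. TRAP libraries held 21.2 to 182 M reads (1 M is 1000000 reads) and tissue libraries 20.7 to 56.4 M reads. Of the 9-month libraries labelled Eed-ko, replicate 2 was the deeper of each region, with 114 against 36.9 M reads in striatum and 182 against 21.9 M reads in cerebellum. The labels name no molecular identifiers, so reads need not be independent molecules, and floors and intervals cover counting error only. The 9-month TRAP libraries had a read in 16200 to 19107 genes, and those of 3 and 6 months in 18773 to 23077. Names of the 3-month libraries differ in form from the others, so 3 months cannot be told apart from how those libraries were run. Names of the 6- and 9-month libraries share a form and number the libraries from 1 to 4 within each region and genotype. A run shared by such a set cannot be told apart from its genotype.

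Eed itself was not lower in the libraries labelled Eed-ko. Striatal controls measured 24.5 and 30.7 RPKM at 3 months, 19.1 and 20.1 at 6 months and 22.3 and 13.4 at 9 months. Striatal libraries labelled Eed-ko measured 25.8 and 28.4, 20.7 and 18.2, and 37.7 and 25.9 RPKM at the same ages. Cerebellar controls lay between 17.3 and 24.1 RPKM and cerebellar libraries labelled Eed-ko between 24.3 and 30.0. A whole-gene value also counts reads outside the floxed part of Eed, so it checks nothing about the deletion, and the genotype is taken from the labels alone. The microglial markers summed to 4963 to 5826 RPKM in the 9-month striatal libraries labelled Eed-ko and to 7002 to 7364 in their controls, without overlap. Sums also lay lower without overlap in 6-month striatum (4908 to 5763 against 8175 to 8274) and 3-month cerebellum (1430 to 2585 against 3150 to 4053). They overlapped in 3-month striatum, in 6-month cerebellum and in 9-month cerebellum (2709 to 4503 against 3278 to 5052). In 9-month striatum the median log2 change of the markers was -0.518. By limma's test with Benjamini-Hochberg adjustment 0 of 15 passed, beside 72 genes higher and 17 lower of all 16090. This lack of calls does not show that the share of microglial RNA was equal.

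Transcripts of the cluster were close to absent outside a single condition. Of the 216 member values in TRAP libraries, 141 were 0 and 26 rested on 1 to 3 reads. Only 8 reached 1 RPKM or lay above it, all in the 4 libraries labelled Eed-ko at 9 months. There the 9 members summed to 8.94 and 12.2 RPKM in striatum and to 6.10 and 12.1 RPKM in cerebellum. In the other 20 TRAP libraries the sum ran from 0 to 0.813 RPKM with a median of 0.140. The 4 libraries thus lay above all others, and Hoxd8 made up 67.3% and 64.7% of their sum in striatum and 73.6% and 69.3% in cerebellum.

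**Figure D1:**
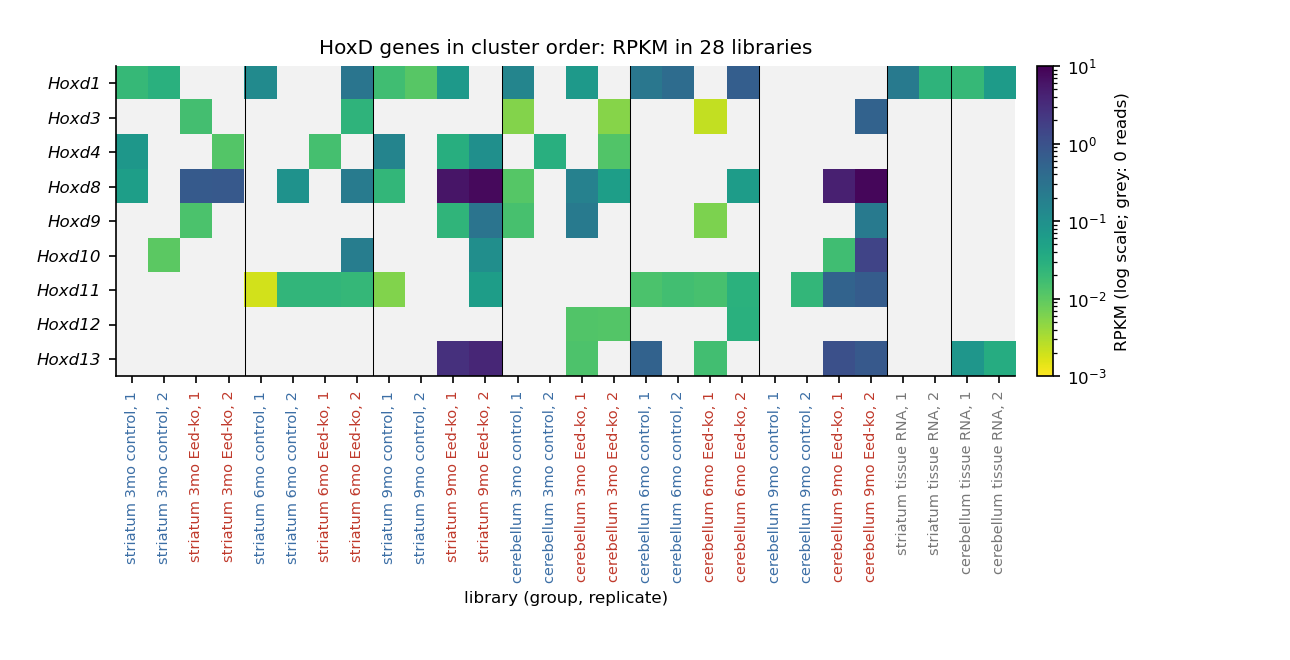
RPKM of the 9 HoxD genes (rows, in chromosome order) in each of the 28 libraries (columns, grouped by region, age and genotype), on a logarithmic colour scale of RPKM, with 0 reads in grey. Hoxd8 and Hoxd13 stand out in the libraries labelled Eed-ko at 9 months, while Hoxd1 and Hoxd11 are seen at a low level in several libraries of both genotypes.

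The upstream sequences of 3 members are shown because these members had the extreme patterns: Hoxd13 and Hoxd8 held most of the signal of the 9-month libraries labelled Eed-ko, and Hoxd1 had most of its reads in other libraries. Each is the 250 bases before the RefSeq start of the gene in GRCm38.p6, + strand, with CG dinucleotides in capitals: chr2:74667975-74668224 for Hoxd13, chr2:74704365-74704614 for Hoxd8 and chr2:74762730-74762979 for Hoxd1. They were matched by symbol, since the values were made on mm9.
Hoxd13: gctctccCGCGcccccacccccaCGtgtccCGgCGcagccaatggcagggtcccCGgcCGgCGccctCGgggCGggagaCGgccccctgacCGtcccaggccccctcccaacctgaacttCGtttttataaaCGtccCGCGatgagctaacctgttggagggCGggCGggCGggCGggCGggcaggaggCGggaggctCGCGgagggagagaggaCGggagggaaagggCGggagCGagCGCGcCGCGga
Hoxd8: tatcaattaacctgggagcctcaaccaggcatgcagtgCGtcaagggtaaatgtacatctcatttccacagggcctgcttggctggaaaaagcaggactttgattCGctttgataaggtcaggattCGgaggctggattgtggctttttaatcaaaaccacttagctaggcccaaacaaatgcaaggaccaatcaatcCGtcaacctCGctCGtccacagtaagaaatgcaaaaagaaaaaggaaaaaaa
Hoxd1: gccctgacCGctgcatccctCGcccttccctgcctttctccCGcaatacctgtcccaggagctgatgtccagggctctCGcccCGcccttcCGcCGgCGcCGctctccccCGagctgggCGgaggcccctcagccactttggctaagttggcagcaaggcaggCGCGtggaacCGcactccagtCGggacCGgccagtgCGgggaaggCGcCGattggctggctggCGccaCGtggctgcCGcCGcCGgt
The Hoxd13 stretch held 31 CG dinucleotides, a number reached by 5.19% of 32851 promoters of the RefSeq table. Hoxd1 held 24, reached by 12.0%, and Hoxd8 only 6, reached by 50.4%. The motif TATAAA, searched on both strands, matched in the Hoxd13 stretch (its forward and reverse matches overlap) and in neither of the others, beside 12.4% of all promoters. Hoxd8 and Hoxd13, the members with the highest values, therefore differed widely in CG content.

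At the posterior end, Hoxd13, which patterns digits and the urogenital tract, was high in 9-month striatum. It measured 2.79 RPKM (259 reads) and 3.76 RPKM (1091 reads) in the libraries labelled Eed-ko, and 0 in both controls. Every other striatal library, tissue included, was also at 0. Against a floor of 3 reads over the 2 controls the 9-month level was at least 349-fold higher.

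In 9-month cerebellum Hoxd13 measured 1.06 RPKM (59 reads) and 0.755 RPKM (350 reads) in the libraries labelled Eed-ko and 0 in both controls, at least 96.8-fold higher. A 6-month cerebellar control, replicate 1, went against this pattern with 0.543 RPKM (130 reads), while its partner was at 0. Cerebellar tissue RNA held 0.0780 RPKM (10 reads) and 0.0339 RPKM (5 reads), so the gene was at a trace level in whole cerebellum. Besides these, 1 read was found in a 3-month and 3 reads in a 6-month cerebellar library labelled Eed-ko.

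Hoxd12, its neighbour and a partner in limb patterning, was the one posterior gene without a read in any 9-month library. It had 1 and 1 read in the 3-month cerebellar libraries labelled Eed-ko and 4 reads (0.0290 RPKM) in a 6-month one. No control or tissue library held a read of it.

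Hoxd11, which patterns the forearm and kidney, was seen mainly in cerebellum. At 9 months the cerebellar libraries labelled Eed-ko measured 0.528 RPKM (64 reads) and 0.676 RPKM (685 reads), and the controls 0 and 0.0223 RPKM (13 reads), so the groups did not overlap. In 9-month striatum it measured 0 and 0.0583 RPKM (37 reads) with the label Eed-ko and 0.00574 RPKM (1 read) and 0 in controls. At 6 months it lay at 0.00185 to 0.0280 RPKM in libraries of both genotypes, and at 3 months no library held a read.

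Hoxd10, a gene of lumbar motor neurons, came almost wholly from 1 library. The 9-month cerebellar libraries labelled Eed-ko measured 0.0169 RPKM (1 read) and 1.51 RPKM (747 reads), which differ 89.3-fold (95% counting interval 16.1 to 3555). In striatum the 9-month pair measured 0 and 0.106 RPKM (33 reads), and a 6-month library labelled Eed-ko 0.198 RPKM (40 reads). The 2 libraries of each pair therefore disagreed, and no group was uniformly high. RefSeq models of Hoxd10 and Hoxd11 overlap, and the cDNA kit did not mark strand, so reads of the shared stretch cannot be told apart.

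Hoxd9, a thoracic and lumbar gene, measured 0.0245 RPKM (2 reads) and 0.286 RPKM (73 reads) in 9-month striatum and 0 and 0.228 RPKM (93 reads) in 9-month cerebellum with the label Eed-ko. A 3-month cerebellar library labelled Eed-ko reached 0.235 RPKM (16 reads), which lies among these values. As for Hoxd10, the deeper replicate 2 held nearly all the reads.

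Hoxd8, a gene of the trunk from the middle of the cluster, had the highest level of all members. In 9-month striatum it measured 6.02 RPKM (617 reads) and 7.90 RPKM (2535 reads) with the label Eed-ko, a mean of 6.96 ± 1.33 (SD, n = 2), against 0.0227 RPKM (2 reads) and 0 in controls. In 9-month cerebellum it measured 4.49 RPKM (275 reads) and 8.41 RPKM (4309 reads), a mean of 6.45 ± 2.77 (SD, n = 2), against 0 in both controls. The ranges of the genotypes lay far apart in both regions. The striatal controls held 2 reads in all, so the ratio is loose: 1322-fold from pooled reads (95% counting interval 366 to 10925) and 614-fold from the means. The cerebellar level was at least 760-fold higher than its floor.

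Hoxd8 also had the most reads of the 9 members at 3 months. The striatal libraries labelled Eed-ko measured 0.746 RPKM (68 reads) and 0.764 RPKM (70 reads), against 0.0572 RPKM (4 reads) and 0 in controls, a ratio of 26.4 from the means and 32.5 from pooled reads. The cerebellar ones measured 0.175 RPKM (15 reads) and 0.0563 RPKM (5 reads), against 0.0115 RPKM (1 read) and 0. In each region the 3-month groups did not overlap, at levels well under those of 9 months.

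At 6 months the Hoxd8 groups did overlap in striatum, where the libraries labelled Eed-ko measured 0 and 0.215 RPKM (45 reads) and the controls 0 and 0.0923 RPKM (14 reads). In cerebellum they measured 0 and 0.0624 RPKM (9 reads), against 0 in both controls. No tissue library held a Hoxd8 read. The 6-month level was thus no higher than that of 3 months in striatum, and the values did not climb steadily with age.

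**Figure D2:**
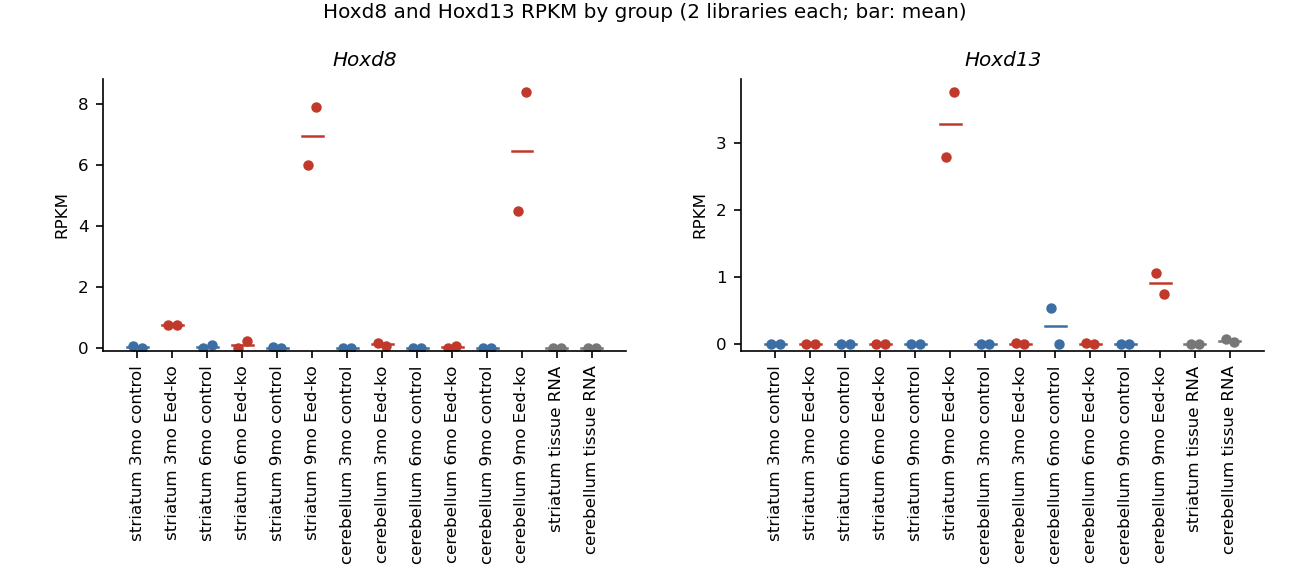
RPKM of Hoxd8 and Hoxd13 in each library (points) by age, genotype and region, with the mean of the 2 libraries of a group. The 9-month libraries labelled Eed-ko measured 4.49 to 8.41 RPKM for Hoxd8 and 0.755 to 3.76 RPKM for Hoxd13, above all their controls of that age.

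Toward the anterior end, Hoxd4, which acts in the hindbrain and neck vertebrae, showed no such pattern. In 9-month striatum it measured 0.0314 RPKM (3 reads) and 0.104 RPKM (31 reads) with the label Eed-ko, while a control of that age had the highest Hoxd4 value of the 28 libraries, 0.158 RPKM (13 reads). In 9-month cerebellum it was at 0 in both genotypes.

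Hoxd3, a gene of the neck vertebrae, appeared in 1 library above trace level. The 9-month cerebellar libraries labelled Eed-ko measured 0 and 0.553 RPKM (598 reads), a ratio of at least 23.8 against the floor of 3 reads. Both 9-month striatal libraries with that label were at 0. Next came 0.0249 RPKM (11 reads) in a 6-month striatal library labelled Eed-ko. RefSeq models of Hoxd3, Hoxd4, Mir10b and the antisense Hoxd3os1 overlap, so without strand their reads cannot be told apart.

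Hoxd1, the most anterior member, was distributed differently, with only 2.04% of its TRAP reads in the 9-month libraries labelled Eed-ko. It had a read in 8 of 12 control and in 4 of 12 TRAP libraries labelled Eed-ko. In 6-month cerebellum it measured 0 and 0.643 RPKM (63 reads), its highest value, with the label Eed-ko and 0.256 RPKM (46 reads) and 0.382 RPKM (49 reads) in controls.

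In 6-month striatum Hoxd1 reached 0.282 RPKM (40 reads) with the label Eed-ko and 0.124 RPKM (23 reads) in a control. Striatal tissue RNA held 0.233 RPKM (16 reads) and 0.0250 RPKM (1 read), and cerebellar tissue RNA 0.0208 RPKM (2 reads) and 0.0632 RPKM (7 reads). It was the only member with reads in all 4 tissue libraries. In TRAP RNA it was seen in both genotypes with no separation between them.

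Within the 9-month libraries labelled Eed-ko, replicate 2 showed more of the cluster in each region: 6 members with a read against 5 in striatum, and 6 against 4 in cerebellum. For Hoxd8 it was higher by 1.31-fold in striatum (95% counting interval 1.21 to 1.44) and 1.87-fold in cerebellum (1.67 to 2.14). Hoxd13 was 1.35-fold higher in striatum but 0.709 times as high in cerebellum. The replicate 2 libraries of both regions carry the same number in their names, and whether they came from 1 mouse is not given in the labels. The part of depth and of the animal in these differences was not tested.

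**Figure D3:**
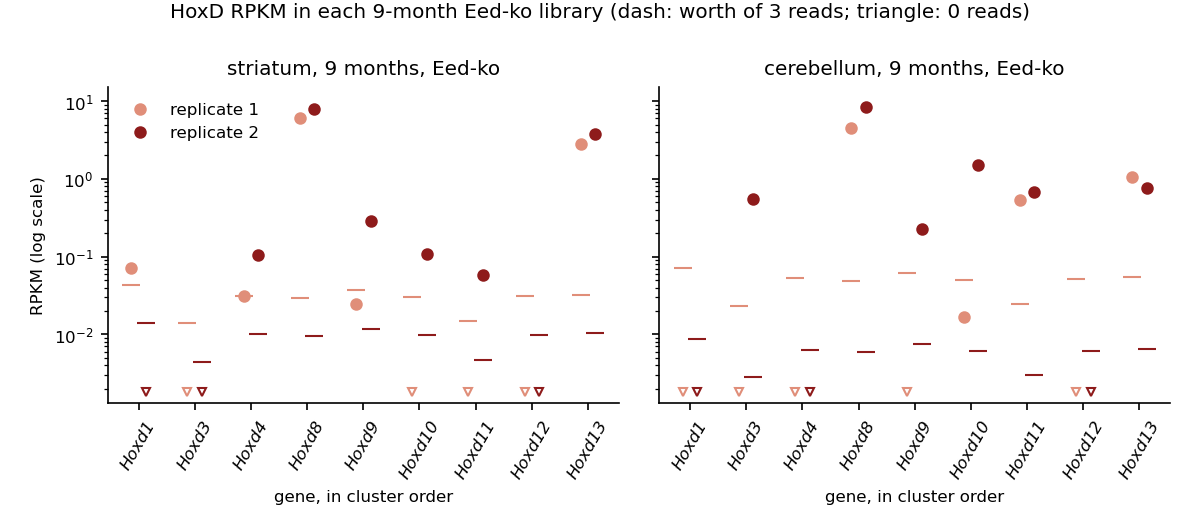
RPKM of each HoxD gene, in chromosome order, in the 4 TRAP libraries labelled Eed-ko at 9 months, on a logarithmic axis; dashes mark the worth of 3 reads and triangles 0 reads. Hoxd8 leads in all 4, Hoxd13 is higher in striatum (2.79 and 3.76 RPKM) than in cerebellum (1.06 and 0.755 RPKM), and Hoxd10 and Hoxd3 are seen above 0.5 RPKM only in cerebellar replicate 2.

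Differences were tested with limma on log2(RPKM + 1), with Benjamini-Hochberg adjustment over all genes that reached 1 RPKM in at least 2 libraries, and a gene was called at an adjusted p under 0.05. Of the members, only Hoxd8 and Hoxd13 reached this level, and they did so through the 9-month libraries labelled Eed-ko. The requirement thus fixed which members could be called, so a count among these 2 does not describe the cluster at 9 months. The same holds for the averages over ages and the change with age. The log2(RPKM + 1) scale understates changes of genes this low. A second fit without the level requirement held all 9 members among 32374 genes.

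At 9 months Hoxd8 and Hoxd13 were called higher in striatal libraries labelled Eed-ko, as were 0.447% of all 16090 genes. Both had met the level requirement only through 9-month libraries with that label. The change was 2.97 ± 0.28 (SE) on the log2 scale for Hoxd8 (adjusted p = 7.95e-05) and 2.09 ± 0.27 for Hoxd13 (adjusted p = 0.00146). Without the level requirement 2 of 9 members were called, the same genes, beside 0.321% of all genes. The median log2 change of the 9 members was 0.04, beside 0 over all genes, and the other members did not pass.

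In 9-month cerebellum Hoxd8 was called, with a log2 change of 2.85 ± 0.28 (adjusted p = 0.000151), beside 0.242% of all genes called higher. Hoxd13 was not, with 0.93 ± 0.27 (adjusted p = 0.171). Without the level requirement 3 of 9 were called, beside 0.105% of all genes: Hoxd8, Hoxd13 (adjusted p = 0.0285) and Hoxd11, whose change was 0.66 ± 0.04 (adjusted p = 3.14e-06). Hoxd11 reached at most 0.0233 RPKM in controls and 0.0280 in 3- and 6-month libraries labelled Eed-ko. Its small SE thus came mostly from libraries at or near 0, and does not measure scatter at the level of the 9-month cerebellar libraries. The same holds for the Hoxd11 tests between regions. Hoxd10 (0.68) and Hoxd3 (0.32) were not called there (adjusted p = 0.506 each), and 1 library held all 598 reads of Hoxd3 and 747 of the 748 of Hoxd10. Fitted without the other library, which leaves that 1 library as the whole group, both passed. The median over the 9 members was 0.32, beside 0 over all genes. It is the Hoxd3 value itself, which came from 1 library, so it does not describe a shift of the cluster. Of the 9 changes 6 were above 0 and 0 below.

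The 9-month calls drew on the spread of all 24 TRAP libraries. With the 8 libraries of 9 months alone the changes were as large, but no member passed: adjusted p = 0.126 for Hoxd8 and 0.290 for Hoxd13 in striatum, and 0.141 for Hoxd8 in cerebellum. With the 12 cerebellar libraries alone Hoxd8 had an adjusted p of 0.0537.

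At 3 months no member was called in striatum, where 0% of all genes were called higher by limma. At an unadjusted p under 0.05 there were 258 genes in either direction, and limma-voom on the recovered reads called 2. Hoxd8 changed there by 0.77 ± 0.28 on the log2 scale (adjusted p = 1), although its groups did not overlap. In 3-month cerebellum its change was 0.15, also not called, beside 0.00622% of all genes.

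At 6 months Hoxd8 changed by 0.08 in striatum and 0.04 in cerebellum, and neither was called, beside 0.0124% and 0.0373% of all genes. The Hoxd13 change in 6-month cerebellum was -0.30 (adjusted p = 0.705) and rested on the 1 control with reads. Without that control it was 0.01. The striatal Hoxd8 change was -0.06 without replicate 2 of the libraries labelled Eed-ko.

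Averaged over the 3 ages, only 2 members could be tested, Hoxd8 and Hoxd13, and Hoxd8 was called. Its change was 1.27 ± 0.16 in striatum (adjusted p = 0.00213), beside 0.0746% of genes, and 1.01 ± 0.16 in cerebellum (adjusted p = 0.0202), beside 0.124%. With limma-voom, or in fits on the libraries of that region only, no member was called. Hoxd13 averaged 0.70 ± 0.15 in striatum (adjusted p = 0.0889) and 0.21 in cerebellum (adjusted p = 0.557). Without the 9-month libraries no member reached the required level, so that fit tested none of them.

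The change of the genotype difference with age was tested by an F-test over the 2 interaction terms. In striatum it was called for Hoxd8 (F = 28.4, adjusted p = 0.0124) and Hoxd13 (F = 20.4, adjusted p = 0.0473), beside 0.0559% of all genes. In cerebellum it was called for Hoxd8 (F = 31.4, adjusted p = 0.00776), beside 0.0373%, and not for Hoxd13 (F = 5.75, adjusted p = 0.472). Striatal Hoxd13 missed the threshold without 11 of the 12 striatal libraries in turn, and Hoxd8 without any of 3 controls (the 2 of 9 months and replicate 2 of 6 months). Limma-voom called 0 genes of any kind in this test in either region, so its lack of member calls says nothing about the cluster.

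**Figure D4:**
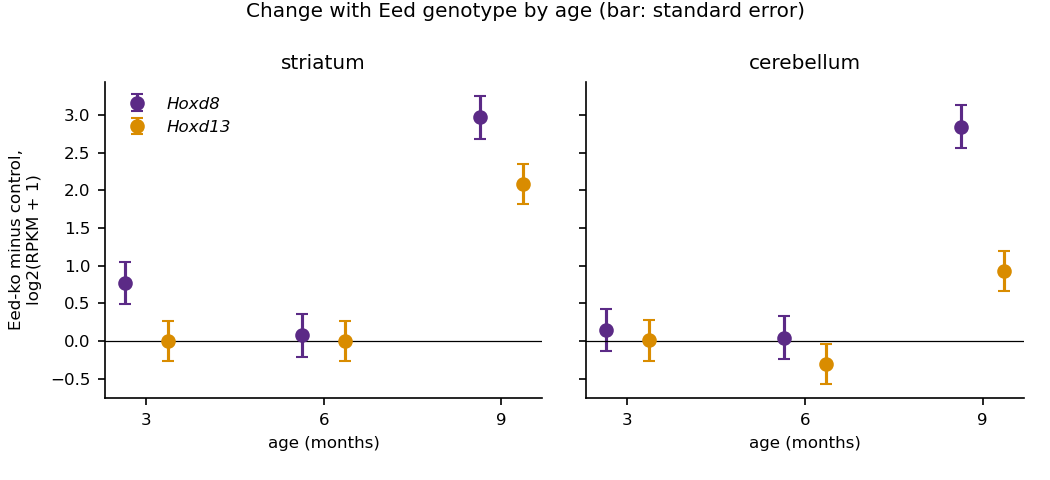
Log2 change of Hoxd8 and Hoxd13 (Eed-ko minus control, from limma on log2(RPKM + 1), error bars 1 SE) against age in months, by region. The 9-month points lie at 2.97 and 2.09 in striatum and at 2.85 and 0.93 in cerebellum, and of those of 3 and 6 months the farthest from 0 are 0.77 for Hoxd8 in 3-month striatum and -0.30 for Hoxd13 in 6-month cerebellum.

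The genotype difference was then compared between regions. No member, and 0% of all tested genes, passed for the difference between the regions by limma, while 1380 genes had an unadjusted p under 0.05 and limma-voom called 0. Cerebellum minus striatum was -0.26 ± 0.23 for Hoxd8 (adjusted p = 0.807) and -0.48 ± 0.22 for Hoxd13 (adjusted p = 0.540). Without the level requirement Hoxd11 alone of the 9 was called, with 0.21 ± 0.03 (adjusted p = 0.0143), beside 0.145% of genes.

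The regions as such differed for 37.1% of genes in controls and for 38.3% in libraries labelled Eed-ko, and neither Hoxd8 nor Hoxd13, the only members tested, was among these. In controls the cerebellum-minus-striatum difference was -0.04 for Hoxd8 (adjusted p = 0.883) and 0.10 for Hoxd13 (adjusted p = 0.638). In libraries labelled Eed-ko it was -0.30 for Hoxd8 (adjusted p = 0.167) and -0.38 for Hoxd13 (adjusted p = 0.0603). Without the level requirement 2 of 9 members were called in the libraries labelled Eed-ko, beside 17.2% of all genes: Hoxd13 (adjusted p = 0.00727), lower in cerebellum, and Hoxd11 (0.21, adjusted p = 9.9e-06), higher there. With so few members this count does not set the cluster apart from all genes. The sign of the Hoxd13 difference turned with limma-voom.

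Genes beside the cluster showed a mixed picture. Evx2, a homeobox gene beyond Hoxd13, measured 0.179 and 0.255 RPKM in 9-month striatal libraries labelled Eed-ko and 0 in all 6 striatal controls, but was not called (adjusted p = 0.167). In 9-month cerebellum it measured 0.159 and 0.135 RPKM with the label Eed-ko against 0 and 0.00207 RPKM in controls, also without a call (adjusted p = 0.506). Cerebellar libraries of 3 months held 0.0703 to 0.374 RPKM in both genotypes, and cerebellar tissue RNA 0.293 and 0.146 RPKM. The antisense RNA between Hoxd3 and Hoxd4, listed as 1700109F18Rik and known as Hoxd3os1, measured 0.960 RPKM (103 reads) and 0.468 RPKM (157 reads) in 9-month striatum with the label Eed-ko, and 0 in the 2 controls. Its log2 change of 0.76 was called in the fit without the level requirement (adjusted p = 0.00188), although its reads cannot be told apart from those of overlapping genes where they overlap. As for Hoxd11, the SE came mostly from libraries at or near 0. It does not measure scatter at the level of the 9-month striatal libraries labelled Eed-ko. Hoxd3 is listed at 0 in those libraries. The flanking genes Lnp (0.814 to 5.69 RPKM) and Mtx2 (4.77 to 16.4 RPKM) were found in every library, and 0 of the 9 neighbours tested were called at 9 months in either region. Calls were rare among all genes too, with 0.447% higher in striatum and 0.242% in cerebellum.

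Other Hox clusters were set beside HoxD at 9 months. In striatal libraries labelled Eed-ko HoxC summed to 14.0 to 17.4 RPKM, HoxA to 4.12 to 5.82 and HoxB to 1.71 to 2.07. All HoxA and HoxC genes were at 0 in the 9-month controls, and the level requirement was met almost wholly through libraries labelled Eed-ko, so counts are given from the limma fit without it. There 5 of 9 HoxC genes rose in striatum (Hoxc4, Hoxc6, Hoxc8, Hoxc9 and Hoxc10), 1 of 11 HoxA genes (Hoxa10) and 0 of 9 HoxB genes, beside the 0.321% of all genes given above. Log2 changes were 2.65 for Hoxc4, 1.99 for Hoxc8 and 2.00 for Hoxa10. In cerebellum HoxC summed to 4.44 to 6.76 RPKM, HoxA to 1.42 to 2.85 and HoxB to 0.0324 to 0.810, and 2 of 9 HoxC genes rose (Hoxc9 and Hoxc10), beside 0.105% of all genes, with 0 of 11 HoxA and 0 of 9 HoxB genes. HoxD was the second highest cluster in striatum by summed RPKM. In cerebellum its 6.10 and 12.1 RPKM were above the sum of each of the other 3 clusters in the same libraries. These orders were not tested.

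**Figure D5:**
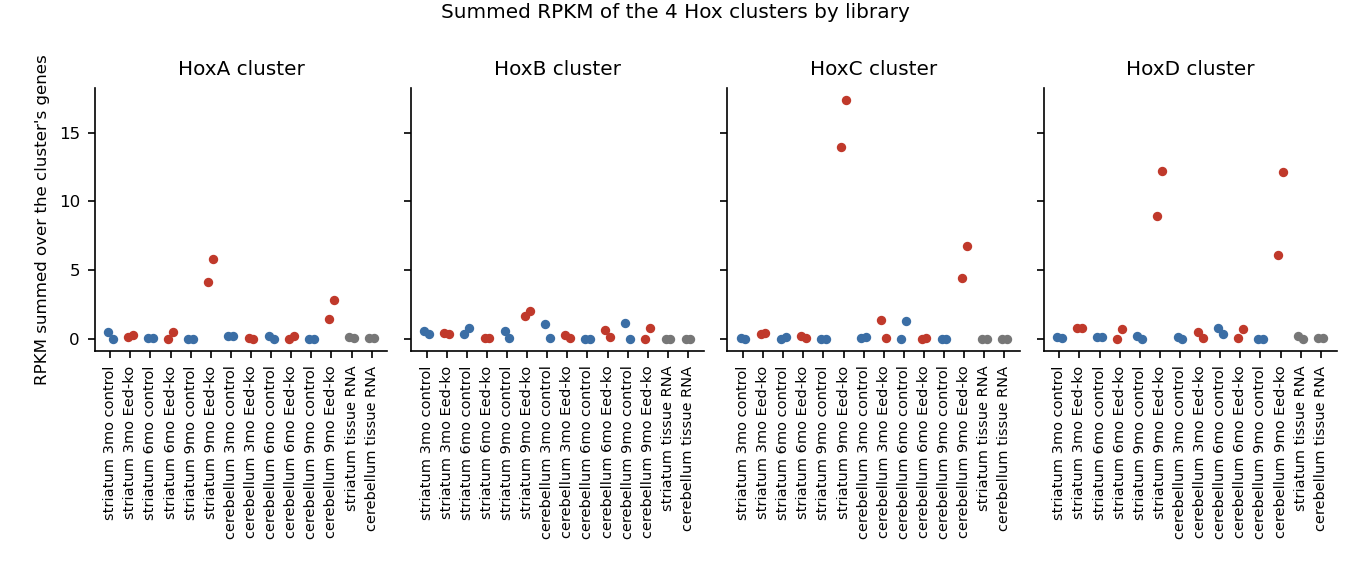
Summed RPKM of the HoxA, HoxB, HoxC and HoxD genes (1 panel each, vertical axis) in each of the 28 libraries (points), by group. In the 9-month libraries labelled Eed-ko HoxC leads in striatum (14.0 to 17.4 RPKM, HoxD 8.94 and 12.2), and HoxD leads in cerebellum (6.10 and 12.1 RPKM).

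The genes whose pattern was most like that of the cluster were found by Pearson correlation of log2(RPKM + 1) with the members' mean over the 24 TRAP libraries. These points share library and depth, the choice uses the measured pattern, and 4 libraries carry most of it. Hoxc9 came closest (r = 0.970), then Hoxa7 (0.933), Hoxa10 (0.90) and Hoxc6 (0.886). Outside the Hox family the list held the lectin genes Cd209d (0.875) and Cd209e (0.803), and the transcription factor genes Gata4 (0.875) and Tbx15 (0.860), with Hoxc10 (0.871) and Hoxc8 (0.861) between them. Tbx15 reached a mean of 10.1 RPKM in 9-month striatum with the label Eed-ko, and Gata4 1.04 RPKM.

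Among genes that act with or on the clusters, none was called for the genotype at 9 months in either region. By limma, calls were made for 0 of 11 PRC2 subunits, 0 of 20 PRC1 subunits and 0 of 11 genes of the trithorax group and H3K27 demethylases. The same held for 0 of 8 tested Pbx, Meis and Pknox genes, which encode partners of Hox proteins on DNA. Of all genes only 0.447% were called higher in striatum and 0.242% in cerebellum. Lists this short would hold few or no calls at such shares, so these counts do not show that the genes were unchanged.

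Sums of several marker lists of other cells lay higher in 9-month striatum with the label Eed-ko. Of all 16090 genes, 72 were called higher and 17 lower there. Choroid plexus markers summed to 9.75 to 342 RPKM with the label Eed-ko against 5.83 to 6.05 in controls, and 1 of 4 tested passed (Otx2, log2 change 2.09, adjusted p = 0.0319). Endothelial and mural markers summed to 17.7 to 20.8 against 5.34 to 6.13 RPKM with 0 of 10 called. Markers of spinal cord and hindbrain levels, tissues where Hox genes stay active, summed to 2.51 to 3.5 against 0.443 to 0.659 RPKM with 0 of 5 called, and Tlx3 and Mnx1 were at 0 in both genotypes. Oligodendrocyte markers summed to 209.7 to 330.5 against 180.8 to 184.6 RPKM (0 of 10 called) and astrocyte markers to 115.2 to 144.0 against 92.9 to 98.2 RPKM (0 of 8 called). The sums overlapped for border macrophages (34.0 to 60.3 against 28.6 to 42.9 RPKM) and for neurons (1062 to 1116 against 892 to 1249 RPKM).

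In 9-month cerebellum oligodendrocyte markers summed to 226 to 234 with the label Eed-ko against 194 to 209 RPKM in controls, and neuron markers to 1764 to 1818 against 1586 to 1636 RPKM. The sums overlapped for choroid plexus (514 to 673 against 464 to 887 RPKM), for spinal cord and hindbrain levels (7.77 to 13.8 against 7.18 to 8.62), for border macrophages (141 to 239 against 211 to 319), for astrocytes (248 to 279 against 225 to 288) and for endothelial and mural cells (14.9 to 23.9 against 9.52 to 22.2). None of the markers in these lists was called there, beside 39 genes called higher and 16 lower of all 16090. The part of such cells in the Hoxd values was not tested. In bulk TRAP RNA a change in the number of cells that hold a transcript and a change in its amount per cell cannot be told apart.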

How the data were processed

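The authors deposited 1 table of RPKM (37991 genes, mm9) for 28 of the 97 samples. Per the submitters' processing notes, TopHat2 2.1.0, HTSeq 0.6.0 and DESeq2 were among the tools, with roles not given in the sources used here. The cDNA kit marks no strand, per the labels' protocols. No value column lacked a sample (0 columns). In 32858 of 32861 genes the values were whole multiples of 1 read within 0.001 reads, so reads were recovered.

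Limma 3.58.1 in R 4.3.3, with an intensity trend, was fitted to log2(RPKM + 1), a pseudocount of 1 RPKM, over 12 group means of 24 TRAP libraries, for the 16090 genes that reached 1 RPKM in 2 or more libraries. P-values are two-sided with Benjamini-Hochberg adjustment. The fit was also run on simulated data, in which only genes with a mean log2(RPKM + 1) above 1 were changed. No HoxD member had so high a mean, so that run says nothing about genes at their level. Intervals are 95% exact intervals.

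All 9 members are named, with the 10 genes most correlated with their mean (unnamed transcripts left out) and list members that passed. Members, lists and tests were chosen with earlier results of these data known. Alternatives were another pseudocount, no filter, limma-voom on recovered reads, rescaling, replicate blocks and left-out libraries. The 8 libraries of 9-month controls in both fractions gave no test of a member, since none reached the level there.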

Additional observations from a re-analysis of the deposited data

Results flagged for a closer look

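The genotype difference differed between 3, 6 and 9 months by test for Hoxd8 in both regions and for Hoxd13 in striatum. The F-test of limma over the 2 interaction terms gave 28.4 for Hoxd8 in striatum (adjusted p = 0.0124), 31.4 for Hoxd8 in cerebellum (adjusted p = 0.00776) and 20.4 for Hoxd13 in striatum (adjusted p = 0.0473), with 2 libraries per group. In each case the 2 libraries labelled Eed-ko at 9 months lay above all other TRAP libraries of that region. Both genes met the level requirement only through 9-month libraries with that label, so this order is no further support. Of all genes tested, 0.0559% were called in striatum and 0.0373% in cerebellum. The age of 3 months cannot be told apart from how those libraries were run. Hoxd13 in cerebellum did not pass (F = 5.75, adjusted p = 0.472). With a pseudocount of 0.1 RPKM no member passed in either region, and striatal Hoxd13 was lost without 11 of the 12 striatal libraries in turn. Striatal Hoxd8 was lost without either 9-month control or without replicate 2 of the 6-month controls.

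Hoxd11 was called for the difference between regions in its genotype difference only in the limma fit without a requirement on level. There cerebellum minus striatum was 0.21 ± 0.03 on the log2 scale (adjusted p = 0.0143), beside 0.145% of all genes. With the requirement Hoxd11 was not tested and 0% of 16090 genes were called, and limma-voom called 0. The SE came mostly from libraries at or near 0, and reads shared with Hoxd10 cannot be told apart. Its 9-month cerebellar libraries labelled Eed-ko measured 0.528 and 0.676 RPKM, against 0 and 0.0583 RPKM in striatum.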

How the results depend on the processing

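Values here are counts of HoxD members called, unless said otherwise. Without the level requirement the count went from 1 to 2 in each region averaged over ages, from 0 to 1 for the difference between regions, from 1 to 3 at 9 months in cerebellum, from 0 to 2 for the region difference with the label Eed-ko and from 1 to 3 for the change with age in cerebellum. With limma-voom on recovered reads it was 0 for both averages (15 genes called in all in striatum, 5 in cerebellum) and both changes with age (0 genes in all), and 2 at 9 months in cerebellum (4 without the level requirement). Fits on the libraries of 1 region gave 0 for both averages and, by age, 0 at 9 months in cerebellum. Other fits gave 0 for both averages without the 9-month libraries, where no member reached the level to be tested. They gave 0 at 9 months in both regions with the 9-month libraries alone. Both of these, the fits of 1 region by age, voom without the level requirement and left-out libraries without it were added after seeing the data. A pseudocount of 0.1 RPKM gave 0 for both changes with age. Rescaling gave 1 for the region difference with the label Eed-ko (median of tested genes) and 1 for the change with age in striatum (TRAP-enriched genes). Leaving out each library in turn gave 0 to 1 for the cerebellar average, 1 to 4 at 9 months in cerebellum, 0 to 1 for the region difference with the label Eed-ko and 0 to 2 for the change with age in striatum. Signs turned with limma-voom for Hoxd8 in the difference between regions (0.15 on the log2 scale) and for Hoxd13 in the region difference with the label Eed-ko (0.24). They also turned for Hoxd8 at 6 months in striatum (-0.064 without replicate 2 labelled Eed-ko to 0.22 without replicate 1) and for Hoxd13 at 6 months in cerebellum (-0.61 without control replicate 2 to 0.012 without control replicate 1). Title numbers did not pair the libraries, with correlations of -0.049 to 0.140. Library numbers shared between regions gave 0.032 to 0.177, of which 3 of 6 passed 0.1, and a block by them changed no call between regions. A replicate block by title number changed 1 call, Hoxd13 for the change with age in striatum (F = 19.4, adjusted p = 0.0803, count 1). Depth limits the low members: with 3 reads as a floor, levels of most members outside the 9-month libraries labelled Eed-ko could not be told from 0.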
